A study of Mus musculus with 36 samples.

Results

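H3K27me3, the trimethylation of histone H3 that PRC2 deposits, was profiled by ChIP-seq in the hippocampus of newborn (P0) mice, and the question was which promoters and regions keep, lose or gain the mark in cKO tissue. The data are the island files of 4 libraries, 2 Ctrl and 2 cKO, chosen by tissue, mark and genotype from 24 libraries with an island file among 36 samples. Ctrl mice carried the genotype Kdm2bfl/+ or Kdm2bfl/fl and kept KDM2B. In cKO mice (Kdm2bEmx1-delta-CxxC), Emx1-Cre removed the CxxC zinc finger of KDM2B in the dorsal telencephalon, so a truncated protein may remain there. Vessels, microglia, meninges and neurons born elsewhere lie outside the Emx1 lineage and still hold intact KDM2B in the dissected tissue. No label says that the replicates came from separate animals, so the p-values below measure only the spread between these libraries.

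KDM2B is the subunit that brings a variant PRC1 complex to unmethylated CpG islands, which it binds through its CxxC zinc finger. PRC1 ubiquitylates histone H2A (H2AK119ub1), PRC2 places H3K27me3, and the marks are read by each other's complexes, so that genes of other lineages stay silent. In the developing hippocampus these genes include the Hox clusters and factors of the ventral telencephalon, while genes of the dorsal telencephalon are active in its progenitors and neurons.

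The promoters differ widely in CpG content, the feature the removed domain reads, and 6 are shown because they stand for the patterns of calls described below. Each is the 250 bases before the RefSeq start (GRCm38.p6), written from 5′ to 3′ on the strand of the gene, with CpG dinucleotides in capitals. Hoxa11 (chr6:52245811-52246060, minus strand, 13 CpG) and Wnt1 (chr15:98789607-98789856, plus strand, 23 CpG) had islands in all 4 libraries. Igf2bp2 (chr16:22163300-22163549, minus strand, 40 CpG) and Snx33 (chr9:56928372-56928621, minus strand, 20 CpG) had islands in Ctrl 1 and Ctrl 2 but no island in cKO. Mitf (chr6:97806808-97807057, plus strand, 15 CpG) and Neurod6 (chr6:55681264-55681513, minus strand, 3 CpG) had them in cKO 1 and cKO 2 alone.
Hoxa11: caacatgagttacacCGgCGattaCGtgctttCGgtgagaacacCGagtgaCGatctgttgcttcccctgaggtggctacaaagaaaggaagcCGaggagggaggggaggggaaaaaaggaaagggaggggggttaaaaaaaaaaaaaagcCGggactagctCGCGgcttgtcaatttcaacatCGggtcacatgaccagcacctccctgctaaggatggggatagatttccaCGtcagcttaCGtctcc
Wnt1: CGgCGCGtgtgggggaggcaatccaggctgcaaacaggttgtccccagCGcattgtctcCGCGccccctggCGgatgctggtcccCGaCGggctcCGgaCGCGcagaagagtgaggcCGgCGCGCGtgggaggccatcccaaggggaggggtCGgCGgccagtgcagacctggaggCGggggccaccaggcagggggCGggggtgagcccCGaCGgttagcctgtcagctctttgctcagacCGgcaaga
Igf2bp2: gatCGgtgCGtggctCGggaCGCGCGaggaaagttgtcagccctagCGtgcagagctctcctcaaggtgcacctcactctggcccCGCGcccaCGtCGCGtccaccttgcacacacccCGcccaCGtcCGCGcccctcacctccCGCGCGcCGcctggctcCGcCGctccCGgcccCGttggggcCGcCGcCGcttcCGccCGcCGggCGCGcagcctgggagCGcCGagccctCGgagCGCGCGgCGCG
Snx33: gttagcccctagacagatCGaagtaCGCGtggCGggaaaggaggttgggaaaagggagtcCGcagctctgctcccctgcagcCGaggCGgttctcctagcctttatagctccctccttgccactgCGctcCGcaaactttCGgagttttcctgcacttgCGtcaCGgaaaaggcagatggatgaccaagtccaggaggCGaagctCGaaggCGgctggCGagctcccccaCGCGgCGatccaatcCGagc
Mitf: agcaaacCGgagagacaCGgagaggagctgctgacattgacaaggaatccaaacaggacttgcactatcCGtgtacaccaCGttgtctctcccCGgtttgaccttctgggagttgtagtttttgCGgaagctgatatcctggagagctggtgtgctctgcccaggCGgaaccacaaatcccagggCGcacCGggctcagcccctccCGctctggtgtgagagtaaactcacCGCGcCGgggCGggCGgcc
Neurod6: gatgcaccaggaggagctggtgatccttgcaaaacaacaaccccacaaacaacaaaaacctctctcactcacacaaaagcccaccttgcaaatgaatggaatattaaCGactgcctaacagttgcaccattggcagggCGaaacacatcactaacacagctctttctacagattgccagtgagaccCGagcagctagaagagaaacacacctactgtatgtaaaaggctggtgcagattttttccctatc
A CpG was present in the same stretch of nearly every promoter: of 13557 promoters whose RefSeq start lay within 1 kb of the start used here, 4.55% had none. The median was 13 CpG at kept promoters (1179 matched), 9 at lost promoters (27 matched), 6 at gained promoters (260 matched) and 12 over all.

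An island is a run of 200 bp windows in which the SICER caller found more reads than the input background allows, and each island comes with its read count. Islands were called in each library separately, so a missing island means that no run passed the threshold, not that there were no reads. On the autosomes the islands held 4345082 counts in Ctrl 1, 1672712 in Ctrl 2, 5279853 in cKO 1 and 5511428 in cKO 2. Ctrl 2 was the shallowest by this measure. Ctrl 1 stood apart on the X chromosome, with 5412 islands and 15.1% of its counts there against 45 to 118 islands and 0.139% to 0.421% in the other libraries, and sex chromosomes were left out of every result. The tissue was checked by its silent and active genes. All 9 genes of other lineages checked (Hoxa9, Hoxd10, Gata4, Gata6, Myod1, Pax1, Pax9, Foxa1 and Sox17) had an island in all 4 libraries. Of 12 genes that hippocampal cells express, 3, 2, 3 and 9 had an island in Ctrl 1, Ctrl 2, cKO 1 and cKO 2, so cKO 2 carried calls at Emx1, Emx2 and Lhx2 that no other library had. Kdm2b itself had no island at its promoter in any library, and nothing in these files checks the deletion.

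The extent of H3K27me3 islands differed as much between replicates as between genotypes. Islands covered 123 Mb in Ctrl 1, 54.6 Mb in Ctrl 2, 122 Mb in cKO 1 and 160 Mb in cKO 2. The cKO 1 value thus sat just below Ctrl 1, and the groups overlapped. The means were 89.0 ± 48.6 Mb in Ctrl and 141 ± 26.6 Mb in cKO (SD, n = 2 each; exact permutation test, two-sided, p = 0.667). With 2 against 2 libraries this test cannot go below 0.33. The number of islands did not overlap, at 22281 and 12116 in Ctrl against 23303 and 38238 in cKO (exact permutation p = 0.33, the smallest possible), although cKO 1 exceeded Ctrl 1 by little.

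Mean island width overlapped between the groups. It was 5.53 and 4.51 kb in Ctrl against 5.24 and 4.17 kb in cKO, and replicate 1 was the wider library in both groups. The difference of the means was -0.32 kb (exact permutation test, two-sided, p = 0.667), and it changed sign to 0.20 kb without Ctrl 1 and to 0.21 kb without cKO 2. Islands of at least 10 kb numbered 2167, 801, 1904 and 2375 in Ctrl 1, Ctrl 2, cKO 1 and cKO 2. Those shorter than 2 kb made up 25.1% of the islands of cKO 2 against 6.02% to 14.0% in the other libraries, so many of the additional calls of cKO 2 were short. The widest island spanned the Hoxb cluster in Ctrl 1 (226 kb), cKO 1 (246.4 kb) and cKO 2 (257.8 kb) and the Hoxc cluster in Ctrl 2 (176.8 kb). Counts per kb of island were 35.2, 30.6, 43.3 and 34.5, again with overlapping groups.

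CpG-rich promoters, those with over 50% GC and a CpG observed to expected ratio over 0.6 in the 1 kb around the start, were compared as a class because the removed domain binds such DNA. Islands covered 12.7% and 10.9% of their bases in Ctrl against 9.87% and 16.8% in cKO. The cKO libraries were therefore the lowest and the highest of the 4, with both Ctrl libraries between them. The means were 11.8% ± 1.26 in Ctrl and 13.3% ± 4.91 in cKO (SD, n = 2; exact permutation p = 1), and the difference turned to -1.95 percentage points without cKO 2. At CpG-poor promoters the shares were 11.5% and 7.78% in Ctrl against 10.3% and 18.8% in cKO, which also overlapped.

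**Figure D1:**
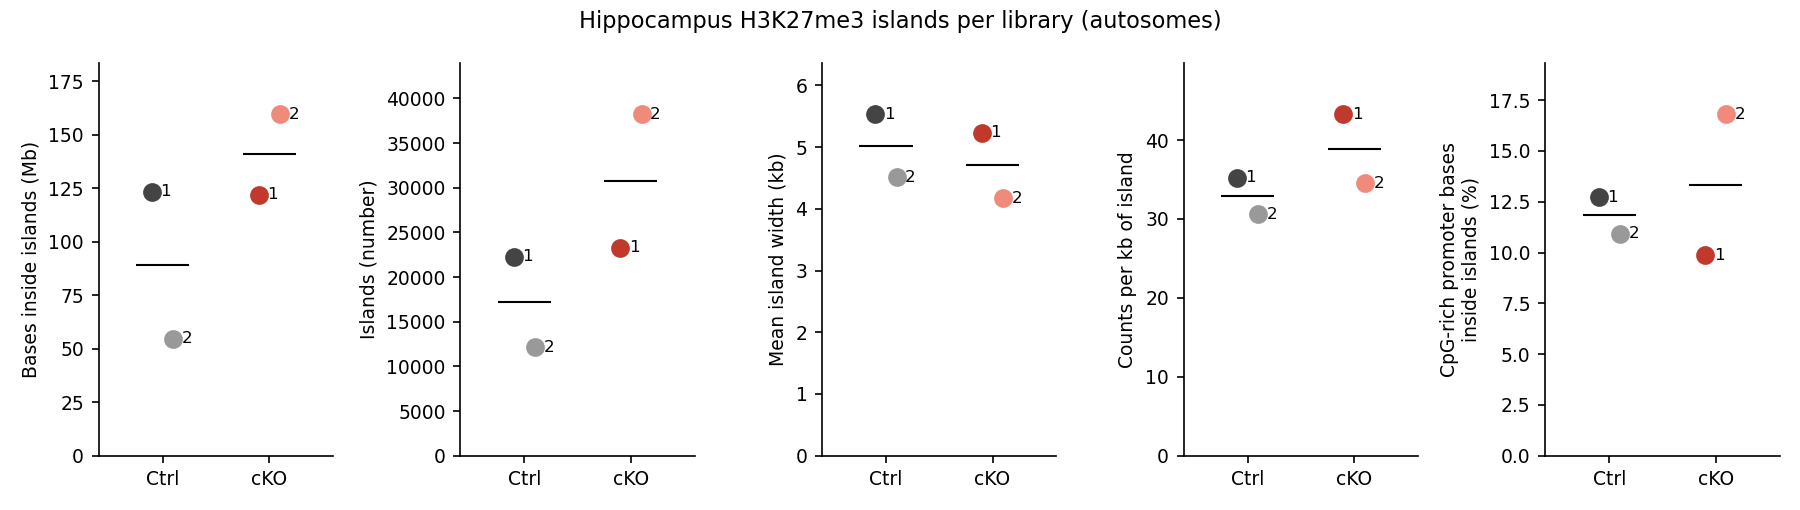
Each point is a library (number beside it: replicate) and each bar the mean of 2; the panels show Mb inside islands, islands, mean island width in kb, counts per kb of island and the percent of CpG-rich promoter bases inside islands, from 0. The Ctrl and cKO points overlap in every panel except the number of islands, where cKO 1 (23303) lies just above Ctrl 1 (22281).

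At promoters, the 2 kb on each side of the start of 20807 autosomal protein-coding genes, the common result was a kept call. Among them 1829 had an island in all 4 libraries (kept; 8.79% of those examined), 47 in both Ctrl and neither cKO library (lost; 0.226%) and 379 in both cKO and neither Ctrl library (gained; 1.82%). No island was called in any library at 14389. The remaining 4163 were called in mixed sets of libraries, and the largest of these sets was 1839 promoters with an island in cKO 2 alone. CpG-rich promoters made up 973 of the kept, 16 of the lost and 97 of the gained promoters, which is 53.2%, 34.0% and 25.6%, and they made up 9506 of all 20807. Most lost and gained calls thus sat at CpG-poor promoters under this rule, but for lost calls this turned around at equal covered length (59 of 107 CpG-rich), in the denser islands (24 of 39) and without cKO 2 (234 of 432).

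Kept promoters carried wide and dense islands, whereas lost and gained promoters carried narrow ones at the edge of the window. The median island at a kept promoter was 9.0, 5.8, 7.8 and 10.4 kb wide in Ctrl 1, Ctrl 2, cKO 1 and cKO 2, and 524 of the 1829 (28.6%) were covered end to end in all 4 libraries. At lost promoters the median island was 4.0 and 3.6 kb in Ctrl and covered 42.1% and 36.6% of the window. At gained promoters it was 4.0 kb in both cKO libraries and covered 40% and 48.6%. Around kept promoters, 76.3% to 90.3% of the bases at the start lay inside islands. At lost promoters only 34.9% and 27.7% did in Ctrl, with the maxima 2.1 and 1.3 kb downstream, and at gained promoters 38.6% and 51.4% did in cKO, with the maxima 2.1 and 1.9 kb upstream.

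**Figure D2:**
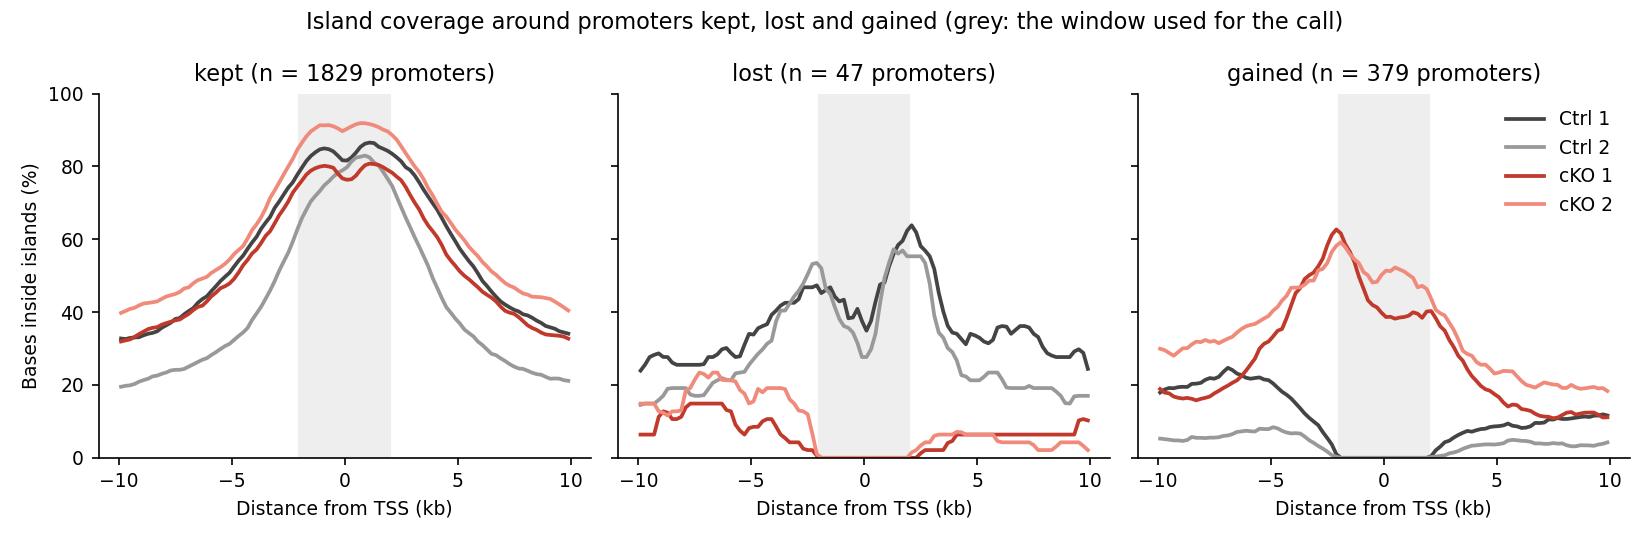
Percent of bases inside islands (vertical axis) against distance from the start in kb (horizontal axis, 200 bp bins, oriented by the gene) for kept, lost and gained promoters, with a line for each library and the calling window in grey. Kept promoters peak inside the window in all 4 libraries; in the lost and gained panels the lines of one genotype are 0 inside the window by construction, and the others peak towards its edges.

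The balance of lost and gained promoters depended on how many bases each library had in islands. When each library was reduced to the covered length of Ctrl 2, taking its densest islands first, 107 promoters were lost and 84 gained, so losses then outnumbered gains (59 and 27 of them CpG-rich), and 1152 were kept. Of the 47 lost promoters 22 were still lost under this rule, and of the 379 gained promoters 34 were still gained (8.97%). Among the 22 were Igf2bp2, Snx33, Dlgap1, Plk3, Gls2 and Zfpm1, and among the 34 were Adar, an RNA-editing enzyme, Scn2b, a sodium channel subunit, and Ttbk1, a neuronal kinase. In the denser part of the islands of each library (at or above its median counts per kb), 39 promoters were lost and 213 gained. When at least 50% of the window had to be covered, the numbers were 29 and 209. Leaving out 1 library, which loosens the rule, moved the lost count to 166 without Ctrl 1, 370 without Ctrl 2, 74 without cKO 1 and 432 without cKO 2. The gained count moved to 826, 466, 2218 and 584 in the same order, so the gained count was largest without cKO 1.

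**Figure D3:**
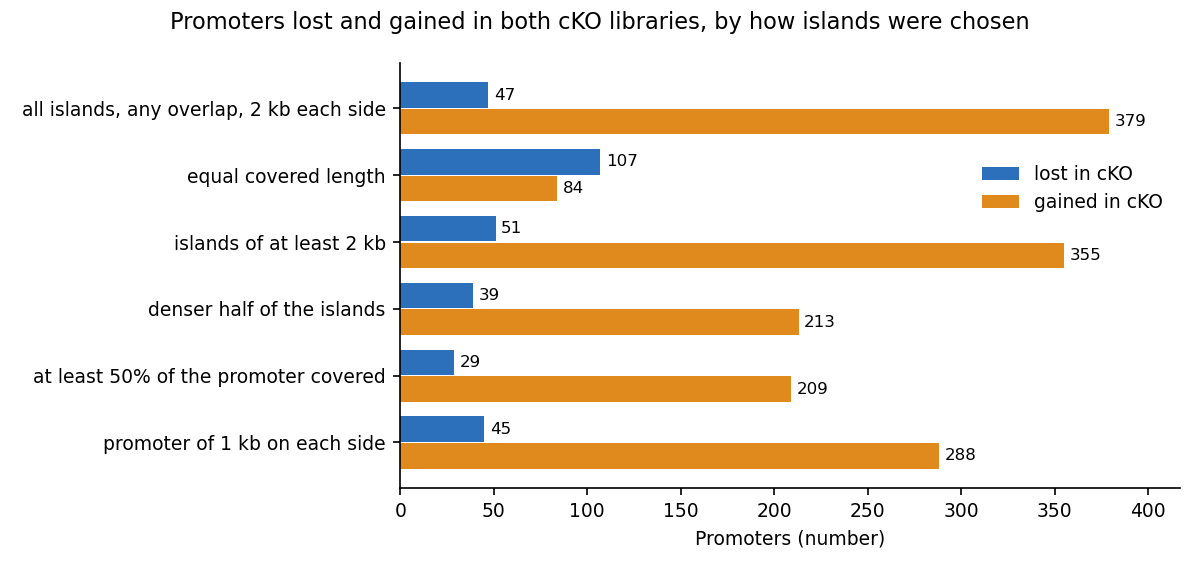
Bars give the number of promoters lost (blue) and gained (orange) in both cKO libraries, on an axis from 0, for each way of choosing islands or calling a promoter. Gains exceed losses (379 against 47) with all islands, and losses exceed gains (107 against 84) only at equal covered length.

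Libraries shared calls both within and between genotypes. Ctrl 1 and Ctrl 2 shared 2288 promoters, 63.7% of the calls of Ctrl 1 and 85.1% of those of Ctrl 2. The cKO pair shared 2742, 89.7% of the calls of cKO 1 and 48.9% of those of cKO 2. Between genotypes, Ctrl 1 and cKO 1 shared 2372, 66.0% and 77.6% of their calls, and Ctrl 2 and cKO 2 shared 2482, 92.3% and 44.2%. In bases, Ctrl 1 and Ctrl 2 shared 31.8% and 71.8% of their islands, cKO 1 and cKO 2 60.2% and 46.0%, and Ctrl 1 and cKO 1 53.7% and 54.3%. The shares of a pair depend on the covered length of each library, which was shortest in Ctrl 2.

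Silenced developmental regulators kept their islands. All 39 Hox cluster genes, the factors that pattern the body axis outside the forebrain, were kept, as were 51 of 52 homeobox genes of other regions and 37 of 42 mesoderm and endoderm factors. Of 31 genes of the ventral telencephalon and GABAergic neurons 27 were kept. Over all promoters 8.79% were kept. No promoter of these lists was lost or gained; with 0.226% lost and 1.82% gained over all promoters, few or none are due in a list of this size, here and in the short lists that follow. Hoxa10 and Hoxa11 lay in 1 island per library, 198.0, 132.8, 182.6 and 191.2 kb wide in Ctrl 1, Ctrl 2, cKO 1 and cKO 2, with 70.0, 68.6, 77.2 and 109 counts per kb. Its width in cKO fell between the Ctrl values, and its density was higher in both cKO libraries, as it was at most kept promoters.

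Island width at single genes of these lists varied between libraries to different degrees. At Evx1, beside the Hoxa cluster, the island was 198.0 and 20.6 kb wide in Ctrl against 182.6 and 191.2 kb in cKO, and at Gata4, an endoderm and heart factor, 50.4 and 10.4 kb against 52.4 and 51.0 kb, so Ctrl 2 was the narrow library at both. At Evx2, a homeobox gene beside the Hoxd cluster, the island was 139.4 and 129.6 kb wide in Ctrl against 141.6 and 120.0 kb in cKO. Hand2, a heart and limb factor, had islands of 56.4 and 48.8 kb in Ctrl against 50.2 and 51.2 kb in cKO. Foxf1, a factor of visceral mesoderm, had 26.4 kb in both Ctrl libraries and 25.8 and 27.2 kb in cKO. Lhx1, an early homeobox gene, had 48.6 and 47.0 kb in Ctrl against 48.4 and 48.0 kb in cKO. Lhx6, which directs the interneurons of the ventral telencephalon, had 26.8 and 23.2 kb in Ctrl against 27.2 and 27.4 kb in cKO. Gsx2, a factor of ventral progenitors, had 41.6 and 25.4 kb in Ctrl against 28.4 and 35.6 kb in cKO. At Evx2, cKO 2 lay below both Ctrl libraries, and at Gsx2 both cKO values lay between the Ctrl values. Among 39 kept Hox promoters both cKO islands were wider than both Ctrl islands at 19 and narrower at 0, and this compares with 490 (26.8%) and 85 (4.65%) of the 1829 kept promoters.

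Most Wnt ligands were marked in all 4 libraries. Of 19 ligand genes 13 were kept, 0 were lost, 1 was gained and 5 had mixed calls, beside 8.79%, 0.226%, 1.82% and 20.0% of all promoters. Islands were called at 17 and 16 in Ctrl and at 14 and 19 in cKO. Mean coverage of the 19 promoters was 80.4% and 76.9% in Ctrl against 61.4% and 91.4% in cKO, so the cKO libraries lay on opposite sides of Ctrl. Wnt1, the midbrain ligand, was covered completely in all 4 libraries, with islands of 46.0 and 26.0 kb in Ctrl against 25.4 and 44.4 kb in cKO that also held Wnt10b in Ctrl 1 and cKO 2. Wnt3, expressed at the cortical hem, was covered completely too, with 17.4 and 12.6 kb in Ctrl against 19 and 41.0 kb in cKO. Wnt3a, the hem ligand needed for the hippocampus to form, was covered at 100% in both Ctrl libraries, 65.0% in cKO 1 and 100% in cKO 2.

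At 3 of the 19 ligands (15.8%) the island was missing from cKO 1 alone, which was so at 1.85% of all promoters. Most promoters had no island in any library and cannot join this set. Of the 2288 promoters called in both Ctrl libraries it held 385, so the share of all promoters understates the rate at marked ones. Of the ligands called in both Ctrl libraries, 13 were kept and 3 lacked the cKO 1 island alone, beside 1829 and 385 over all promoters. The Wnt7b promoter, a ligand of deep cortical neurons, was covered at 18.2% and 40% in Ctrl, 0% in cKO 1 and 68.2% in cKO 2. Wnt8b, a ligand of the hippocampal primordium, was covered at 100%, 100%, 0% and 100% in the same order. Wnt9a was covered at 100%, 93.2%, 0% and 100%. Wnt5a, a ligand of the non-canonical branch, was the gained member, with 0% in both Ctrl libraries, 1.27% in cKO 1 and 31.3% in cKO 2. The cKO 1 island of that gene (3.6 kb) only touched the window. Wnt3a, Wnt7b, Wnt8b and Wnt9a fall outside the naming rule and were added after their values were seen.

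Receptors and antagonists of the pathway were kept in part. Of 37 Wnt receptor and effector genes 10 were kept, 0 were lost, 0 were gained and 16 had no island, where 0.226% lost and 1.82% gained is the share over all promoters. Fzd5, a Frizzled receptor, had islands of 7.6 and 12 kb in Ctrl against 16.6 and 13.0 kb in cKO. Fzd10 had 43.6 and 17.8 kb in Ctrl against 8.2 and 18.4 kb in cKO. Lgr5, a receptor for R-spondins, had 23.8 and 12.4 kb in Ctrl against 29.4 and 31.4 kb in cKO. Each of the 3 was covered over 80.0% or more of its window in every library. Lef1, a nuclear effector of the canonical pathway, and Fzd6 lacked an island in cKO 1 only. Among 16 antagonists 6 were kept, including Sfrp5, Sost and Dkk1, and 1 was gained. The gained gene was Frzb, a secreted Frizzled-related inhibitor, whose promoter was covered at 0% in both Ctrl libraries, 75.6% in cKO 1 and 100% in cKO 2, with 36.1 and 25.8 counts per kb. Sfrp2, another secreted inhibitor, was covered at 38% and 45.0% in Ctrl, 0% in cKO 1 and 58.0% in cKO 2. Lef1, Fzd6 and Sfrp2 were named after their values were seen.

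BMP and dorsal midline genes, which act beside Wnts at the cortical hem, had 14 of 22 promoters kept, 0 lost and 2 gained. Gdf7, a ligand of the roof plate, had islands of 15.6 and 12.2 kb in Ctrl against 16.2 and 20.6 kb in cKO. Msx1, a target of BMP signalling, had 41.6 and 28.6 kb in Ctrl against 29.2 and 34.6 kb in cKO. Gdf6 had 25.8 and 21.6 kb in Ctrl against 21.2 and 22.4 kb in cKO. The gained members were Gdf5, covered at 0% in Ctrl and at 55.0% and 99.2% in cKO, and Bmp5, covered at 0% in Ctrl and at 84.1% and 45.0% in cKO; both are BMP-family ligands with CpG-poor promoters. Neither was gained once the libraries were reduced to equal covered length.

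Genes of the dorsal telencephalon, where Cre is active, showed the widest disagreement between the cKO libraries. Of 39 such genes 8 were kept, 0 were lost, 1 was gained and 19 had mixed calls. Islands were called at 17 and 18 of them in Ctrl, 11 in cKO 1 and 26 in cKO 2, and mean coverage was 30.3% and 28.7% in Ctrl, 12.8% in cKO 1 and 55.8% in cKO 2. The Ctrl libraries thus lay close together with the cKO libraries on either side. At 8 of the 39 (20.5%) the island was missing from cKO 1 alone, namely at Prox1, Tbr1, Neurod1, Dmrta2, Cux2, Eomes, Hes1 and Dmrt3. Over all promoters this set held 385 of 20807 (1.85%), and it held 385 of the 2288 promoters called in both Ctrl libraries. The 39 include genes without an island in Ctrl, which cannot join the set. Of the members called in both Ctrl libraries, 8 were kept and 8 lacked the cKO 1 island alone. Over all promoters 1829 were kept and 385 lacked it. Eomes, the marker of intermediate progenitors, was covered at 100% and 80.0% in Ctrl, 0% in cKO 1 and 100% in cKO 2. Prox1, which specifies granule neurons of the dentate gyrus, was covered at 17.8%, 12.8%, 0% and 27.8% in the same order. At 7 genes of the list the island was in cKO 2 alone, Emx1, Emx2 and Lhx2 among them. Neurod6, a factor of pyramidal neurons, was the gained member, with 3.45% covered in cKO 1 and 50% in cKO 2. Neurog1, a proneural factor, was kept, with islands of 30.4 and 17.2 kb in Ctrl against 15.6 and 21.8 kb in cKO. In tissue, a change in the share of cells with the mark and a change within each cell cannot be told apart.

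**Figure D4:**
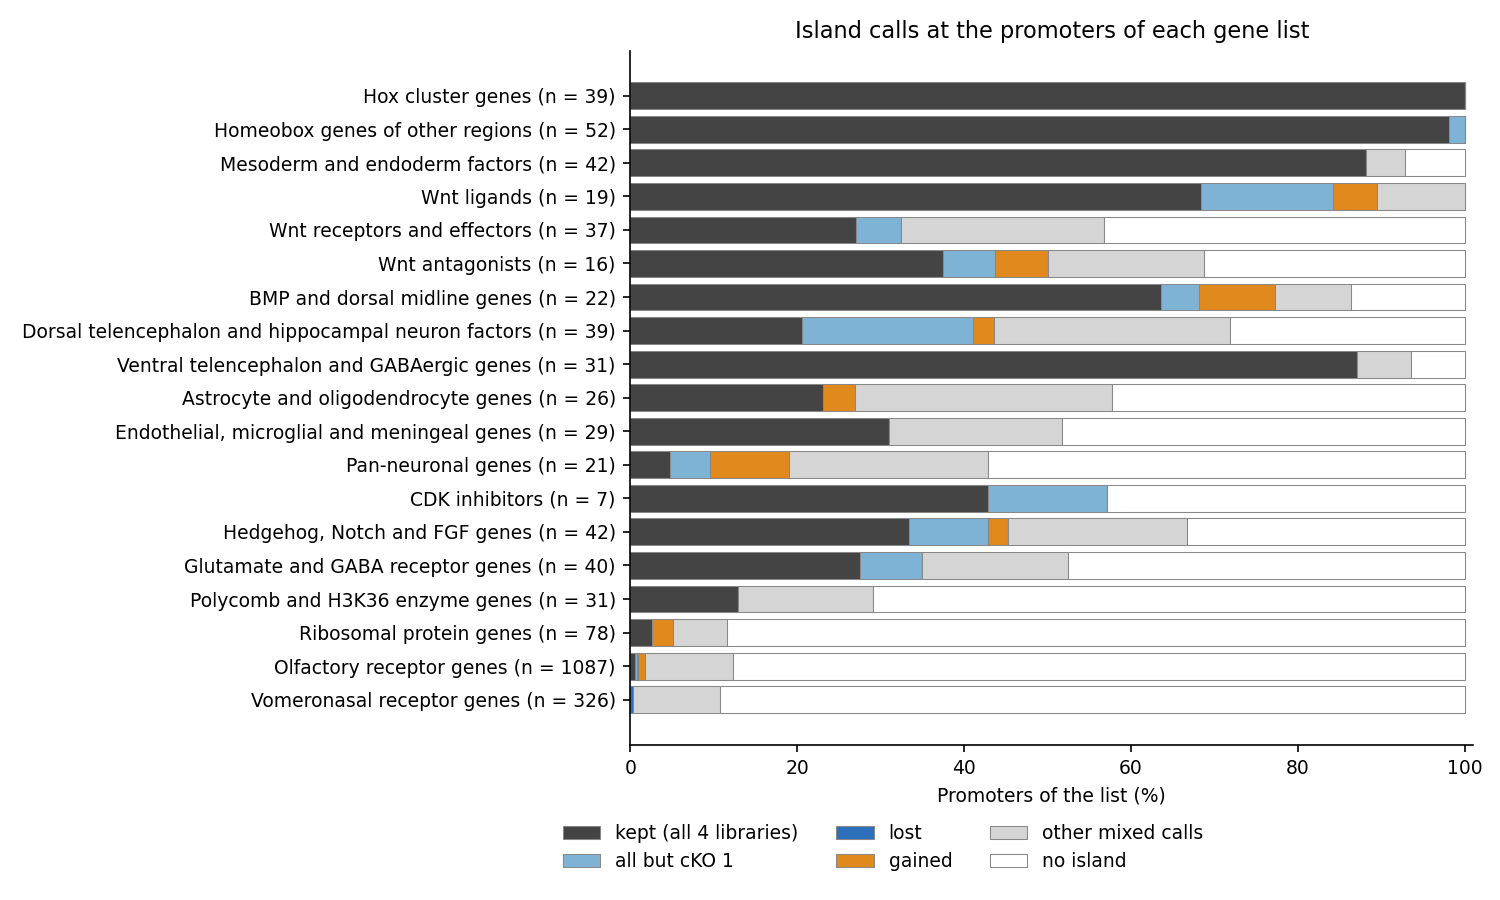
Each bar is a gene list (number of promoters in brackets) divided by the pattern of island calls, in percent of its promoters from 0 to 100. The Hox, homeobox, mesoderm and ventral lists are mostly kept, lost promoters are almost absent, and the islands missing from cKO 1 alone (light blue) reach 20.5% of the dorsal telencephalon list.

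The 385 promoters without an island in cKO 1 alone were more often CpG-rich than the lost or gained ones, and about as often as the kept ones. CpG-rich promoters made up 56.6% of the 385 (218), beside 53.2% of kept, 34.0% of lost and 25.6% of gained promoters. The median island at the 385 was 4.6, 3.4 and 5.2 kb wide in Ctrl 1, Ctrl 2 and cKO 2. The opposite set, an island in every library except cKO 2, held 27 promoters. cKO 1 had fewer islands than cKO 2 (23303 against 38238) but more counts per kb (43.3 against 34.5). At the same 385 promoters H2AK119ub1, the PRC1 mark, was called in 24.2% and 63.9% in Ctrl, 7.53% in cKO 1 and 76.9% in cKO 2. Over all promoters H2AK119ub1 calls were 6.33%, 18.1%, 4.15% and 25.6% in that order, so cKO 1 had the fewest and cKO 2 the most promoters called for that mark, while for H3K27me3 Ctrl 2 had the fewest. The lysate of a sample was divided among the antibodies, so the numbered libraries of the marks may share their chromatin. The part of library quality in this pattern was not tested.

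Of the 16 lost CpG-rich promoters, the 10 with the largest difference of coverage are named here; the other 31 lost promoters were CpG-poor, with higher median coverage (48.6% and 37.5% in Ctrl). Ssbp4, which encodes a single-stranded DNA binding protein, was covered at 56.8% and 61.8% in Ctrl by islands of 4.0 and 4.4 kb, and at 0% in both cKO libraries. Igf2bp2, which encodes an RNA-binding protein of growing progenitors, was covered at 22.6% and 70.0% in Ctrl and 0% in cKO, with 36.5 counts per kb in Ctrl 1. Dlgap1, a scaffold of the postsynaptic density, was covered at 40% and 36.8% in Ctrl. Snx33, a sorting nexin, was covered at 44.2% in both Ctrl libraries. Zfpm1, a cofactor of GATA factors, was covered at 33.5% and 28.5%. The rest of the 10 were 3110070M22Rik and Tmem267, which share a divergent promoter, Zfp433, Plk3 and Gls2, with 24.4% to 49.6% covered in Ctrl. These islands were narrow, 1.8 to 10.2 kb, and 8 of the 10 windows were covered below 50% in both Ctrl libraries.

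The 97 gained CpG-rich promoters had a median coverage of 22.9% in cKO 1 and 29.2% in cKO 2, against 34.0% in Ctrl 1 and 33.7% in Ctrl 2 at the 16 lost ones, and the 10 with the largest difference are named here. Adcy7, an adenylate cyclase, was covered at 0% in Ctrl and 100% in both cKO libraries, by islands of 5.2 and 7.4 kb with 34.6 and 36.6 counts per kb. Mitf, a factor of pigment cells, was covered at 70.0% and 100% in cKO by islands of 4.6 and 7.8 kb. S1pr1, a sphingosine-1-phosphate receptor, was covered at 91.8% and 60.0%, and Tns1, a focal adhesion protein, at 43.8% and 100%. Prickle2, a planar polarity gene, was covered at 100% and 31.2%, Pcsk5, a proprotein convertase, at 100% and 29.2%, and Elfn2, a synaptic membrane protein, at 30.8% and 85.8%. Galnt14 and Slc7a1 were covered at 76.3% and 38.7%, and at 47.6% and 65.0%. All 10, with Frzb, were at 0% in both Ctrl libraries by definition, and none of the 10 was gained at equal covered length.

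Genes of other cell types and general neuronal genes were kept in part, beside 8.79% kept, 0.226% lost and 1.82% gained over all promoters. Of 29 endothelial, microglial and meningeal genes 9 were kept, 0 were lost and 0 gained, with Flt1, Cldn5 and Esam the densest. Of 26 glial genes 6 were kept, Olig1, Olig2 and Nkx2-2 the densest, and Mag, a myelin gene, was gained, with 16.8% and 60.0% covered in cKO. Of 21 pan-neuronal genes 1 (Nefl) was kept and 2 were gained. Stmn2, a neuronal tubulin regulator, was covered at 69.0% and 29.0% in cKO, and Ncam1, a neural adhesion molecule, at 28.1% and 8.10%. The tumour suppressor genes Cdkn2a and Cdkn2b, classical targets of PRC1 and PRC2, shared an island of 52.0 and 55.4 kb in Ctrl against 56.0 and 55.6 kb in cKO. Of 7 CDK inhibitor genes 3 were kept and 0 were lost.

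Signalling and receptor genes followed the same order. Of 42 Hedgehog, Notch and FGF genes 14 were kept, with Shh, Fgf8 and Dhh the densest, and none was lost. Of 40 glutamate and GABA receptor genes 11 were kept, with Grm6, Grik3 and Grin2c the densest, and none was lost or gained. Of 31 Polycomb and H3K36 enzyme genes 4 were kept, with Pcgf1 and Cbx8 among the densest, and none was lost or gained.

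Housekeeping and olfactory genes served as a contrast, beside 8.79% kept, 0.226% lost and 1.82% gained over all promoters. Of 78 ribosomal protein genes 2 were kept and 2 gained (Rpl26 and Rpl3l), and 69 had no island. Of 1087 olfactory receptor genes, which lie in large clusters of similar sequence, 6 were kept, 1 was lost (Olfr96) and 9 were gained, Olfr412, Olfr317, Olfr156 and Olfr324 with the largest differences. Of 326 vomeronasal receptor genes 0 were kept and 1 was lost (Vmn1r163). The similar copies of these families can share reads, so their calls are uncertain.

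Over the whole autosomal genome, islands of the 4 libraries merged into 45580 regions, whose coordinates are given in mm10. Of these 4381 were kept, 295 were lost (0.647%) and 3218 were gained (7.06%). Kept regions had a median length of 14.0 kb, and 46.0% of them overlapped a promoter. Lost and gained regions had medians of 4.6 and 4.8 kb, and 65.1% and 59.3% of them were intergenic. Lost regions held 1.59 and 1.21 Mb of island in Ctrl, and gained regions held 12.8 and 11.6 Mb in cKO, against 68.0, 40.7, 64.7 and 70.8 Mb in kept regions. At equal covered length 424 regions were lost and 299 gained, so the excess of gains turned around, and the denser islands alone gave 133 and 1311. Without cKO 1 the gained count was 19555 and without cKO 2 it was 8594, against 6709 without Ctrl 1 and 3538 without Ctrl 2. The lost count was 2530, 5243, 447 and 965 without Ctrl 1, Ctrl 2, cKO 1 and cKO 2.

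The widest lost regions were dense in Ctrl, and the first held near-identical genes. At chr3:92210601-92288400, which holds Sprr2a1, Sprr2a2 and Sprr2a3, epidermal barrier genes that are near-identical copies, islands covered 74.8 and 76.4 kb in Ctrl with 60.3 and 45.6 counts per kb and 0 kb in cKO. At chr1:85576401-85655000, which holds Sp100, Sp110 and Sp140, genes of nuclear body proteins, they covered 78.6 and 38.8 kb with 121 and 85.9 counts per kb. The neighbouring intergenic region chr1:85476401-85518200 was covered over 41.8 and 38.4 kb. The others were chr8:20587601-20660600 at Gm21119, with 68.4 and 6.4 kb, and chr14:43327001-43366400 at 1700001F09Rik, with 38.6 and 35.4 kb. All 5 regions had more counts per kb than the median lost region (29.3 and 23.9 in Ctrl). In neurospheres the Sp100 region was covered over 52.0 and 3.2 kb in Ctrl and 0 kb in both cKO libraries, the Gm21119 region over 21.6 and 0 kb in Ctrl against 20.4 and 0 kb in cKO, and the Sprr2a region over 6.8 and 4.4 kb in Ctrl against 1.8 and 0 kb in cKO. Reads of such copies can be placed at more than 1 position, so these calls are uncertain.

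The widest gained regions were less dense, with 1 exception. At chr1:88277801-88314200, over Trpm8, a cold-sensing channel, and the promoter of Hjurp, a centromere chaperone, islands covered 0 kb in Ctrl against 19.2 and 36.4 kb in cKO, with 108 and 54.9 counts per kb. The intergenic region chr9:46660801-46682400 was covered over 13.2 and 18 kb. Regions at Hk1 (chr10:62381801-62400800) and in the intergenic interval chr17:27268401-27288200 were covered over 12.2 and 16.4 kb and over 17.8 and 10.4 kb. The last, chr7:24447401-24468200 at Irgc1 and Plaur, was covered over 4.6 and 20.8 kb. Outside the Trpm8 region the density was 23.8 to 38 counts per kb. In neurospheres the chr9 region was covered over 20.8 and 19.8 kb in Ctrl and 21.6 kb in both cKO libraries, and the Trpm8 region over 0 and 33.8 kb in Ctrl against 33.6 and 35.2 kb in cKO.

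In the 4381 kept regions, counts, called length and density were compared across all regions, and none passed an adjusted p of 0.05. edgeR's quasi-likelihood test on counts called 0 regions (0% of those tested; 155, or 3.54%, at an unadjusted p under 0.05, 62 of them lower in cKO; lowest Benjamini-Hochberg adjusted p = 0.133). limma on called length called 0 (207, or 4.72%, at an unadjusted p under 0.05; lowest adjusted p = 0.821), and limma on counts per kb called 0 (59, or 1.35%; lowest adjusted p = 1.00). DESeq2 called 3 on the counts, all lower in cKO, and edgeR called 23 without cKO 1 and 3 without cKO 2, all lower. Counts per kb gave 42 calls without cKO 1, 11 lower and 31 higher, and 1 without cKO 2. In these fits cKO is 1 library, assumed to vary like the Ctrl libraries. On data simulated with the fitted spread, edgeR recovered 59.5% of regions changed 4-fold, with 7 false calls. The simulation had no island threshold, whereas the tested counts lie inside islands called in all 4 libraries. It therefore does not show what share of real changes could be seen here.

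Single libraries of the same genotype differed about as much as single libraries of different genotypes. The median absolute log2 difference of normalised counts was 0.50 between the Ctrl libraries and 0.43 between the cKO libraries, and 0.33 to 0.60 over the 4 pairs of different genotype. For called length it was 0.78 and 0.35 within genotypes and 0.33 to 0.90 between them. For centred counts per kb it was 0.17 and 0.23 within and 0.12 to 0.21 between. Normalised counts did not overlap between groups in 668 regions that were lower in both cKO libraries (15.2%) and in 696 that were higher (15.9%).

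At the kept promoters, counts per kb as deposited were higher in both cKO libraries at 1431 of 1829, whereas over all islands the value of cKO 2 (34.5) lay below that of Ctrl 1 (35.2). Divided by the library median, they were higher in both at 231 (12.6%) and lower in both at 259 (14.2%). Island width was higher in both cKO libraries at 490 (26.8%) and lower at 85 (4.65%). The median islands of 9.0 and 5.8 kb in Ctrl against 7.8 and 10.4 kb in cKO overlapped. Over the 4381 kept regions the median log2 fold change of called length was 0.40 with all libraries. It was 0.76 without Ctrl 1, -0.015 without Ctrl 2, 0.51 without cKO 1 and 0.33 without cKO 2, so it depended on Ctrl 2.

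The kept promoters with the largest fold changes did not pass the adjusted threshold and are given as values. Sidt1, a membrane protein of RNA transport, had 70.4 and 133 normalised CPM in Ctrl against 30.5 and 11.8 in cKO, a log2 fold change of -2.26 ± 0.64 (SE; edgeR adjusted p = 0.994). Efna3, an ephrin ligand, had 94.7 and 161 in Ctrl against 19.6 and 56.0 in cKO (log2 fold change -1.75 ± 0.63). Pth1r, the parathyroid hormone receptor, shared a region with Myl3 and had 225 and 338 in Ctrl against 44.9 and 131 in cKO (-1.68 ± 0.56). Mast1, a microtubule-associated kinase, had 56.0 and 104 in Ctrl against 23.1 and 27.7 in cKO (-1.65 ± 0.52), and Pianp had 122 and 113 against 44.6 and 46.8 (-1.36 ± 0.46). These groups did not overlap, by the rule that chose them. Called length went down with the counts, from 6.4 and 6.2 kb in Ctrl to 2.4 and 1.2 kb in cKO at Sidt1, while counts per kb at that gene were 29.1 and 26.6 in Ctrl against 40.8 and 30.8 in cKO.

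In the other direction, Pcolce2, an enhancer of procollagen processing, had 35.2 and 33.8 normalised CPM in Ctrl against 190 and 78.9 in cKO (log2 fold change 1.96 ± 0.57). Il27, a cytokine subunit, shared a region with Apobr and Cln3 and had 34.1 and 45.9 in Ctrl against 67.0 and 191 in cKO (1.69 ± 0.61). Cass4, an adhesion scaffold, had 66.6 and 39.5 against 129 and 178 (1.52 ± 0.50). Rasd2, a small GTPase, had 86.7 and 73.3 against 160 and 233 (1.30 ± 0.44), and Col5a3, a collagen chain, had 86.3 and 50.7 against 135 and 203 (1.29 ± 0.50). Their edgeR adjusted p was 0.994 each. The called length at Pcolce2 was 2.6 and 1.6 kb in Ctrl against 15.8 and 7.8 kb in cKO, so at this gene too the counts moved with the length called. Not every named promoter followed this. At Pth1r the called length overlapped, at 15.2 and 12.2 kb in Ctrl against 4.2 and 13.8 kb in cKO. Its counts per kb were lower in both cKO libraries, at 39.1 and 34.4 in Ctrl against 34.3 and 29.9 in cKO.

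**Figure D5:**
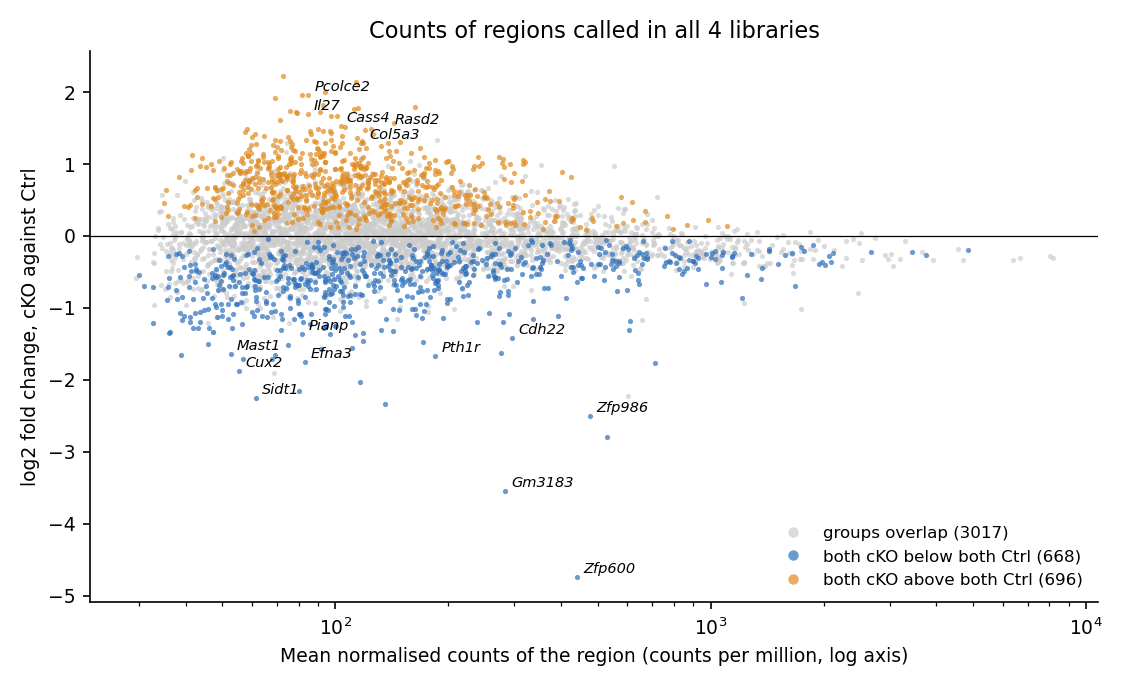
Each point is a region called in all 4 libraries: mean normalised CPM (horizontal, log axis) against the edgeR log2 fold change, cKO against Ctrl (vertical), coloured by whether the 2 cKO libraries lie below (668) or above (696) both Ctrl libraries. The points farthest from 0, near Zfp600 and Gm3183, are lower in cKO, and none passes the adjusted threshold.

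Of the 5 regions with the smallest p and lower counts in cKO, 3 lay between genes near Zfp600, Zfp986 and Gm3183, 1 in the body of Cdh22 and 1 at the promoter of Cux2. Near Zfp600 (chr4:146248201-146293200) the counts were 1696 and 1313 in Ctrl against 179 and 23 in cKO, and the called length was 35.6 and 39.8 kb against 3.8 and 0.4 kb (log2 fold change of counts -4.75 ± 0.84; edgeR adjusted p = 0.994). Near Zfp986 (chr4:145759201-145808000) they were 1991 and 1084 against 487 and 421 (-2.51 ± 0.30; adjusted p = 0.133), and near Gm3183 (chr5:94805001-94849000) 1133 and 762 against 252 and 33 (-3.55 ± 0.81; adjusted p = 0.994). The 3 regions are the ones DESeq2 called. These 5 regions were named after their values were seen. The similar copies of these genes can share reads, so the counts are uncertain. In Cdh22, a cadherin gene, the counts were 1093 and 556 in Ctrl against 427 and 594 in cKO (-1.42 ± 0.34, edgeR adjusted p = 0.994). The called length there was 34.2 and 18.8 kb in Ctrl against 10.8 and 19.6 kb in cKO. At Cux2, a factor of upper-layer neurons, the region had 215 and 115 counts in Ctrl against 80 and 70 in cKO (-1.88 ± 0.48, edgeR adjusted p = 0.994). Its called length was 6 and 3.8 kb in Ctrl against 1.8 and 2.8 kb in cKO. The Cux2 promoter was covered at 75% in both Ctrl libraries, 0% in cKO 1 and 12.5% in cKO 2. In the other direction, the 5 regions with the smallest p lay in the bodies of Rtf2 and Nxpe2 and between genes near Drd1, Habp2 and Cacng2. Their log2 fold changes were 1.79, 2.01, 2.23, 2.14 and 1.95 in that order (edgeR adjusted p = 0.994 each). Of the 155 regions at an unadjusted edgeR p under 0.05, 62 were lower in cKO and the rest higher. All these counts are those inside called islands, and reads outside islands are not known.

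H3K27me3 in cultured hippocampal neurospheres, profiled in the same study with 2 Ctrl and 2 cKO libraries, was set beside these calls. Kept promoters were called in 82.3% and 84.7% of cases in neurosphere Ctrl and 84.3% and 72.0% in cKO, against 27.3%, 28.1%, 30.0% and 23.1% of all promoters. Gained promoters were called there in 63.3% and 64.4% in Ctrl against 67.8% and 57.8% in cKO, so most already had an island in Ctrl neurospheres. Lost promoters were called in 29.8% of cases in both Ctrl libraries and 27.7% and 25.5% in cKO. Of the 47 lost promoters 3 (6.38%) were also lost in neurospheres, beside 1.58% of all promoters, and of the 379 gained promoters 12 (3.17%) were also gained, beside 1.12% of all. The neurosphere totals were 329 lost and 234 gained. H3K36me2 islands in the hippocampus touched 1.42% to 2.02% of kept promoters and 3.97% to 6.51% of all promoters.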

How the data were processed

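H3K27me3 ChIP-seq of hippocampus, 2 Ctrl and 2 cKO libraries, was analysed from island files. Per the labels and the study's methods, the authors trimmed paired reads with cutadapt, aligned them to mm10 with Bowtie2 2.4.5, removed duplicates and called islands in each library against input with SICER (window 200 bp, gap 600 bp, FDR 0.01; version not given in the sources used here). The deposited values are raw read counts per island, so depth outside islands is not known and counting error is only part of the spread. Island files of the other marks and of neurospheres were used only where named.

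Autosomal islands were intersected with promoters (2 kb on each side of the most 5′ start of protein-coding genes, GENCODE vM21) and merged across the 4 libraries into regions. Regions with an island in every library were tested with edgeR 4.0.16 (quasi-likelihood, TMM) on counts, and with limma 3.58.1 on log2 called length and on log2 counts per kb centred per library, with Benjamini-Hochberg adjustment. Library values were compared by exact permutation tests. The edgeR step was tested on simulated data. DESeq2 1.42.0 and other island choices were alternatives.

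Genes were named by rule: from each list up to 4 lost and 4 gained members and the 3 kept members with the most counts per kb, the 10 lost and 10 gained CpG-rich promoters with the largest difference of coverage, the 5 kept promoters in each direction with the largest fold change among those whose groups do not overlap, and the 5 lost and 5 gained regions with the most called bases. Members and lists were chosen with earlier results of these data known. Some members of the lists are not reported here.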

Additional observations from a re-analysis of the deposited data

How the results depend on the processing

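Reducing every library to the covered length of Ctrl 2 gave 1152 kept, 107 lost and 84 gained promoters and 299 gained regions, turned the difference of mean island width to 0.63 kb and that of CpG-rich coverage to -0.31 percentage points. The denser islands alone gave 213 gained promoters, 133 lost regions and 1311 gained regions, and the 50% coverage rule 29 lost and 209 gained promoters. Leaving out 1 library at a time gave 74 to 432 lost and 466 to 2218 gained promoters, 447 to 5243 lost and 3538 to 19555 gained regions, differences of -0.85 to 0.21 kb in width and -1.95 to 4.98 points in coverage, and 0 to 23 regions called on counts and 0 to 42 on counts per kb. A rule over fewer libraries is looser by construction, and other causes were not tested.

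DESeq2 called 3 regions on counts. Same-numbered libraries share only a number: with it as a replicate block, 13 regions were called on counts, 3 on called length and 0 on counts per kb. Deviations of same-numbered libraries correlated at 0.27, 0.065 and 0.29 over 4381 regions for the 3 measures, with 2 pairs. The other 50 values of the comparisons kept their size class where they were counts. For covered length, mean width and CpG-rich coverage only the sign of the difference was compared, and its size could change. The difference of covered length was 51.8 Mb with all libraries, 86.2 Mb without Ctrl 1 and 17.5 Mb without Ctrl 2. Of the values for named genes and regions, 79 stayed within the replicate spread and 59 moved. None could turn, because each was 0 in Ctrl or in cKO by definition and the alternatives only remove islands. At equal covered length 12 of 36 promoters and 4 of 10 regions were at 0 in both genotypes. In the denser islands this held for 8 promoters. Ctrl 2 had the fewest counts inside islands and the shortest covered length, which bounds what was called in all 4 libraries. Whether depth or enrichment set this was not tested. With 2 libraries a group no exact test can pass 0.05.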
